A study of Mus musculus with 24 samples.

Results

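The chemokine system of the mouse lung was described here through 30 genes, of 13499 genes measured by a probe set that names a single gene. They were chosen by symbol, as every gene named Ccl, Cxcl, Xcl, Ccr, Cxcr, Xcr or Ackr with a number, or Cx3c, and each was read at its probe set with the highest mean over all arrays. They comprised 22 ligands, 6 signalling receptors and 2 atypical receptors. RefSeq lists 62 protein-coding mouse genes that meet the same rule, and the other 32 were not analysed here.

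Chemokines are small secreted proteins that bind heparan sulfate on cells and matrix and guide leukocytes along their gradients. They signal through G protein-coupled receptors on the migrating cell, while atypical receptors bind chemokines without this signal and take them up or carry them. In the lung, CC chemokines such as Ccl2 and Ccl12 attract monocytes, CXC chemokines such as Cxcl1 and Cxcl2 attract neutrophils through Cxcr2, and Ccl19, Cxcl13 and their receptors arrange lymphocytes and dendritic cells.

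Right lung lobes of 24 mice were profiled on whole-transcript arrays, 17 of them from mice transgenic for TGF-beta1, a cytokine that drives fibrosis, and 7 from wild-type mice. The mice came from 6 inbred strains, 3 that the study's design calls prone to fibrosis (C57BL/6J, A/J and AKR/J) and 3 that it calls resistant (BALB/cJ, and strains labelled 129 and C3H). Each strain had 3 transgenic mice and 1 wild type, except C57BL/6J with 2 of each. All 24 mice, wild type included, drank doxycycline for 2 weeks to induce the transgene, so the drug does not separate the genotypes. Age, sex and the promoter that drives the transgene are not stated in the labels, and Tgfb1 was not analysed here, so the level of the transgene was not checked. A fibrosis code on the samples, read by its own key, gives the classes the other way round. The design text is followed below, and every difference of prone minus resistant changes sign under the other reading.

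The arrays had similar overall levels, with medians between 7.76 and 7.83 on the log2 scale, and 17 pairs of mice of the same strain and genotype correlated between 0.992 and 0.997 over genes. The lung label was borne out by high levels of Scgb1a1, the club cell secretory protein, at 13.41 to 14.14, and of Sftpa1, a surfactant protein, at 13.74 to 14.19. One array stood apart: transgenic 129 mouse 1 had 10.96 for S100a8, a neutrophil protein, against 6.35 to 7.49 in wild-type mice, and a neutrophil marker score of 2.09 against at most 0.40 in any other transgenic mouse. A score here is the mean of a list's log2 values after centring each gene on its mean over all mice. As lung RNA is a mixture, a lower value may come from fewer cells of a type or from less RNA per cell, and these cannot be told apart. Fold changes are differences of log2 values within a probe set. Levels of different probe sets cannot be read as a ranking of RNA amounts. Words such as high or dim describe a place on the array's scale only.

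Across strains, transgenic lungs had more RNA of several leukocyte-attracting ligands and less of the lymphocyte homing receptors Ccr7 and Cxcr4. With strain as a covariate in limma, 13 of the 30 genes passed an adjusted p of 0.05, against 26.7% of all genes tested. Of the 22 ligands 7 rose, against 13.2% of all genes, and 1 fell, against 13.5% of all genes. Of the 8 receptors 2 rose and 3 fell. The median change was 0.12 for ligands and -0.13 for receptors, beside -0.0006 over all genes.

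**Figure D1:**
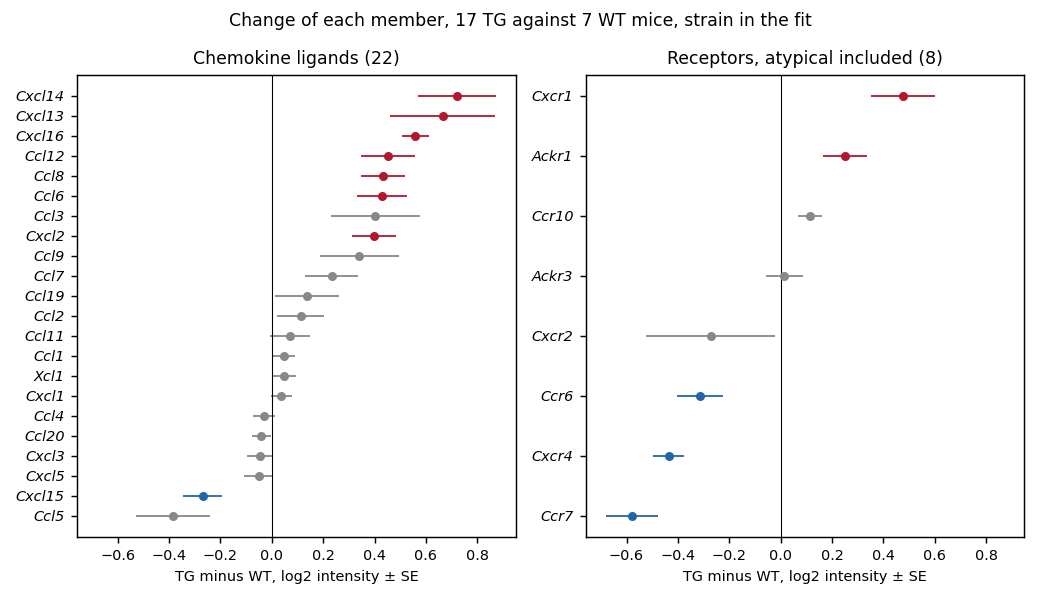
Transgenic minus wild-type log2 difference over all 6 strains for each of the 30 genes, with bars of 1 SE, ligands and receptors in separate groups; red (higher) and blue (lower) points have a limma adjusted p under 0.05 and grey points do not. Cxcl14 at 0.72 and Cxcl13 at 0.67 lie farthest to the higher side, Ccr7 at -0.58 farthest to the lower side, and Cxcl16 at 0.56 has a short error bar.

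The most regular change was in Cxcl16, a chemokine made as a membrane protein that attracts memory and natural killer T cells. Cxcl16 stood at 10.97 to 11.04 in transgenic A/J mice against 10.24 in the wild type, at 10.52 to 10.75 against 10.02 in AKR/J, and at 11.02 and 11.15 against 10.30 and 10.34 in C57BL/6J. It stood at 10.63 to 10.70 against 10.28 in 129, at 10.63 to 10.74 against 10.20 in BALB/cJ, and at 10.67 to 10.73 against 10.45 in C3H. All 17 transgenic mice lay above all 7 wild-type mice, with no overlap, and the mean difference was 0.56 ± 0.05 (SE; 1.47-fold; limma adjusted p = 8.4e-08). Adam17, a protease that sheds membrane proteins, rose by 0.21 ± 0.04 (limma adjusted p = 0.00017).

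Cxcl14, an epithelial and stromal chemokine, and Cxcl13, which draws B cells through Cxcr5, had the largest mean differences. Cxcl14 ranged from 10.12 over a median of 10.88 to 11.90 in transgenic mice and from 9.82 over 10.28 to 10.98 in wild-type mice. The ranges overlapped, 16 of 17 transgenic mice exceeded the wild-type mean of their own strain, and the difference was 0.72 ± 0.15 (SE; 1.65-fold; limma adjusted p = 0.0011). In every strain but C57BL/6J that mean is a single wild-type mouse. Such counts of transgenic mice, here and below, are therefore not independent comparisons. Cxcl13 ranged from 9.61 over 10.15 to 10.95 in transgenic mice and from 8.96 over 9.29 to 11.16 in wild-type mice. The highest value of all 24 mice was that of a wild type, C57BL/6J mouse 2, while 15 of 17 transgenic mice exceeded their strain's wild-type mean. The difference for Cxcl13 was 0.67 ± 0.20 (limma adjusted p = 0.018). It missed the threshold without the wild-type 129 mouse (0.58, limma adjusted p = 0.066) and without the wild-type BALB/cJ mouse (0.55, limma adjusted p = 0.071). That wild-type C57BL/6J mouse also had the highest B and plasma cell marker score, 1.30, against -0.76 to 0.26 in transgenic mice; the part of these cells in the Cxcl13 values was not tested.

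Among the monocyte and macrophage chemokines encoded side by side on chromosome 11, Ccl12, Ccl8 and Ccl6 rose. Ccl12, also known as MCP-5, ranged from 5.62 over 5.88 to 6.79 in transgenic mice and from 5.48 over 5.61 to 5.67 in wild-type mice. Every transgenic mouse lay above the wild-type mean of its strain although the ranges met at their edges, and the difference was 0.45 ± 0.11 (limma adjusted p = 0.0027). Ccl8, a relative of Ccl2, ranged from 6.20 over 6.60 to 7.12 against 5.75 over 6.33 to 6.88 in wild-type mice, with overlap and a difference of 0.43 ± 0.09 (limma adjusted p = 0.00063). Ccl6, a macrophage product, ranged from 11.42 over 11.87 to 12.59 against 11.15 over 11.44 to 11.75, with overlap and a difference of 0.43 ± 0.10 (limma adjusted p = 0.0019). Ccl12 and Ccl8 were dim: they exceeded the lower quartile of their array, 6.68 to 6.86, in 1 and 5 of the 24 mice. Their changes are therefore read near the bottom of the scale.

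Other genes of the same clusters were not called. In the run Ccl2, Ccl7, Ccl11, Ccl12, Ccl8 and Ccl1, 2 of 6 rose and differences spanned 0.05 to 0.45. Ccl2, the main monocyte attractant, differed by 0.11 ± 0.09 (limma adjusted p = 0.41), and Ccl7, which attracts monocytes too, by 0.23 ± 0.10 (limma adjusted p = 0.10). In the run Ccl5, Ccl9, Ccl6, Ccl3 and Ccl4, 1 of 5 rose and differences spanned -0.39 to 0.43. Ccl3 differed by 0.40 ± 0.17 (limma adjusted p = 0.091) and Ccl9, a relative of Ccl6, by 0.34 ± 0.15 (limma adjusted p = 0.11). With single mice left out, Ccl7 passed without the wild-type BALB/cJ mouse (0.32, limma adjusted p = 0.029), Ccl9 without the wild-type C3H mouse (0.48, limma adjusted p = 0.024), and Ccl3 without transgenic AKR/J mouse 3 (0.46, limma adjusted p = 0.032). Without the wild-type A/J mouse, Ccl3 differed by 0.20 (limma adjusted p = 0.40) and Ccl9 by 0.19 (limma adjusted p = 0.41).

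Markers of monocytes and interstitial macrophages also rose over all strains. Of 10 measured markers 7 rose and none fell, and their score ranged from -0.39 to 0.86 in transgenic mice against -0.62 to -0.09 in wild-type mice. In AKR/J, where Ccl8 differed by 0.91, the score was -0.39 to -0.22 in transgenic mice against -0.45. In A/J, where Ccl8 differed by 0.57, the score was 0.66 to 0.86 against -0.32. Of 5 measured dendritic cell markers 3 rose, and none of 4 measured alveolar macrophage markers passed the test. The part of these cells in the ligand values was not tested.

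Cxcl1, Cxcl2 and Cxcl3 are close relatives on chromosome 5 that all act through Cxcr2, yet only Cxcl2 passed the test. The changes of these genes were not tested against each other. Their RefSeq promoter windows of 300 bases are shown with that of Cxcl14. The Cxcl trio carries the same motif upstream of the start, and its part in the RNA values was not tested. Capitals mark matches to the NF-kB motif in the trio, from overlapping hits on both strands, and to the interferon response element in Cxcl14. The windows are from GRCm38.p6: Cxcl1 at chr5:90890995-90891294, Cxcl2 at chr5:90903649-90903948 and Cxcl3 at chr5:90785851-90786150 on the plus strand, and Cxcl14 at chr13:56296502-56296801 on the minus strand.
Cxcl1: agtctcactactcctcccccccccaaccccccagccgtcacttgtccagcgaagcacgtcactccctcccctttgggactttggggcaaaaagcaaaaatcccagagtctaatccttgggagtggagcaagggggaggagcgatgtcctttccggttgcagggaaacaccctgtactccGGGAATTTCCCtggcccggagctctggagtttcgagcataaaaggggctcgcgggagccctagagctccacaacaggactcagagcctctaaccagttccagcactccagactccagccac
Cxcl2: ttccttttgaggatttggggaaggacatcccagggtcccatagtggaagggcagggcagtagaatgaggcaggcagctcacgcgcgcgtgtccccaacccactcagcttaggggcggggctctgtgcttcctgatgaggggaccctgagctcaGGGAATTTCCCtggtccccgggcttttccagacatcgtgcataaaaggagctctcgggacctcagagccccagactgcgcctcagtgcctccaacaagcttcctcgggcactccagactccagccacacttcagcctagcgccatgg
Cxcl3: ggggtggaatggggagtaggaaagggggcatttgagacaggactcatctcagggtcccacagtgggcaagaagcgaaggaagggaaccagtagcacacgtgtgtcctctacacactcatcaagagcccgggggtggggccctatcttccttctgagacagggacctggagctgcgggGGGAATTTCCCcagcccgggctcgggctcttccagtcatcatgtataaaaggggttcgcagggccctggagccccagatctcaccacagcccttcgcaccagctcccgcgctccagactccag
Cxcl14: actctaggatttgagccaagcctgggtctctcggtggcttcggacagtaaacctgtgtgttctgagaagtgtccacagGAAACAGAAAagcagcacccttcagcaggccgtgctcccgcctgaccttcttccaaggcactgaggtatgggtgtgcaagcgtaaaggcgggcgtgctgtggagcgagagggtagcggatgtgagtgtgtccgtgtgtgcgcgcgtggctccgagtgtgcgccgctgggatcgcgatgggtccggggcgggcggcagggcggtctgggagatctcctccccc

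The marked NF-kB match began at position -71 of Cxcl1, -97 of Cxcl2 and -73 of Cxcl3, counted from the annotated start. It was found in 7 of the 22 windows available for 21 of the 30 genes (31.8%) and in 8.46% of all 32851 windows; the 7 were Cxcl1, Cxcl2, Cxcl3, Ccl1, Ccl9, Ccl20 and Ccr6. Of these 7 genes, Cxcl2 rose and Ccr6 fell over all strains, beside 26.7% of all genes called in either direction. The interferon response element was in 2 windows (9.09%, against 3.44% of all), those of Cxcl14 and Ccl19. AP-1 (TGANTCA) was in 1 (4.55%, against 7.81%), the Smad binding element CAGACA in 3 (13.6%, against 21%), and the longer Smad box GTCTAGAC in 0 (against 0.213%). Both strands were searched, and a match describes letters only.

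Cxcl2 ranged from 5.51 over 5.92 to 6.33 in transgenic mice and from 5.38 over 5.49 to 5.69 in wild-type mice. The ranges overlapped at 5.51 to 5.69, 16 of 17 transgenic mice exceeded their strain's wild-type mean, and the difference was 0.40 ± 0.09 (1.32-fold; limma adjusted p = 0.0014). Cxcl1 differed by 0.04 (limma adjusted p = 0.57), Cxcl3 by -0.05 (limma adjusted p = 0.54) and Cxcl5, another neutrophil attractant, by -0.05 (limma adjusted p = 0.55). Cxcl2, Cxcl3 and Cxcl5 lay under the lower quartile of the array in all 24 mice, which limits what their values can show. Cxcl15, or lungkine, an abundant product of lung epithelium, was the ligand that fell, by 0.27 ± 0.08 (SE; limma adjusted p = 0.010), from 13.27 to 13.57 in wild-type mice to 12.81 to 13.55 in transgenic mice. The ranges overlapped, the mean was lower in all 6 strains, and the call was lost when C57BL/6J was left out (-0.19). Of 7 measured alveolar type 2 cell markers 1 rose and none fell, with a median of 0.02. Of 7 measured airway secretory cell markers 4 fell and none rose, with a median of -0.31. The part of these cells in the Cxcl15 values was not tested.

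**Figure D2:**
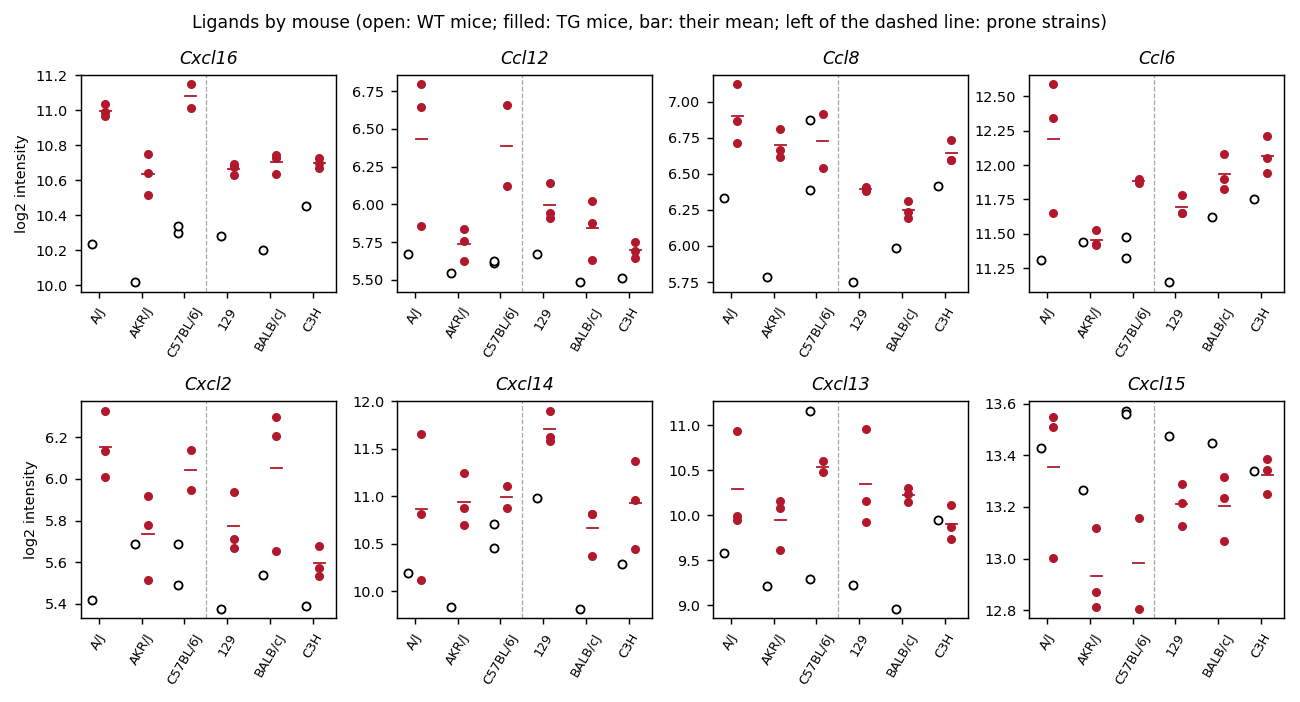
Log2 values of the 8 called ligands in every mouse, by strain, with open points for wild-type mice, filled points for transgenic mice, bars for transgenic means and a dashed line between prone and resistant strains. Cxcl16 separates the genotypes in each strain, from 10.52 to 11.15 in transgenic and 10.02 to 10.45 in wild-type mice, while the Cxcl13 value of 1 wild-type C57BL/6J mouse, 11.16, tops all mice.

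The remaining ligands did not pass over all strains. Ccl5, a product of T and NK cells, differed by -0.39 ± 0.14 (limma adjusted p = 0.052). Its call came and went with single arrays. Without 129 transgenic mouse 1 or the 129 wild type, any 1 of the 3 transgenic AKR/J mice, C3H transgenic mouse 1 or 2, or the C3H wild type, Ccl5 passed, at -0.33 to -0.51 and limma adjusted p between 0.013 and 0.047. Ccl19, a ligand of Ccr7, differed by 0.14 ± 0.12 (limma adjusted p = 0.47). The other 6, the eosinophil attractant Ccl11, the Ccr8 ligand Ccl1, the Xcr1 ligand Xcl1, the macrophage product Ccl4, the Ccr6 ligand Ccl20 and Ccl2, lay between -0.04 and 0.11.

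Receptors moved in both directions. Ccr7, which guides dendritic cells and naive lymphocytes to lymph nodes, ranged from 9.07 over 9.67 to 9.997 in transgenic mice and from 10.005 over 10.21 to 10.53 in wild-type mice. The highest transgenic value, that of AKR/J mouse 3, lay just below the lowest wild-type value, that of C3H, so the groups did not overlap. Ccr7 fell by 0.58 ± 0.10 (SE; 1.49-fold; limma adjusted p = 0.00015). Cxcr4, the Cxcl12 receptor of lymphocytes, neutrophils and progenitors, ranged from 9.42 over 9.93 to 10.35 against 10.10 over 10.35 to 10.51. The ranges overlapped between strains, but all 17 transgenic mice lay below the wild-type mean of their own strain, and Cxcr4 fell by 0.44 ± 0.06 (1.35-fold; limma adjusted p = 1.3e-05). Ccr6, found on B cells and some T cells, ranged from 6.30 over 6.70 to 7.19 against 6.78 over 6.88 to 7.54. The value of 7.54 was that of wild-type C57BL/6J mouse 2. Ccr6 exceeded the lower quartile of its array in 13 of the 24 mice. The ranges overlapped, 15 of 17 transgenic mice were lower, and Ccr6 fell by 0.31 ± 0.09 (limma adjusted p = 0.011). Without C57BL/6J it differed by -0.22 (limma adjusted p = 0.051).

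Most measured lymphocyte markers also fell over all strains. All 6 measured T and NK cell markers fell, with a score of -0.49 to 0.36 in transgenic mice against -0.03 to 0.60 in wild-type mice. These 6 differed by -0.92 to -0.26 in prone strains, where all 6 passed, and by -0.46 to -0.17 in resistant strains. In resistant strains only Il2rb passed (limma adjusted p = 0.018), and the others had limma adjusted p between 0.075 and 0.63. Of 7 measured B and plasma cell markers 5 fell, among them Ms4a1 by 0.73 and Pax5 by 0.69, with a score of -0.76 to 0.26 against -0.32 to 1.30. Of these markers, only Ms4a1 and Pax5 passed in prone strains and none passed in resistant strains. The part of these cells in the receptor values was not tested. Without transgenic 129 mouse 1, Ccr7 was at -0.55 and Cxcr4 at -0.44, both called.

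Cxcr1, a neutrophil receptor, ranged from 7.51 over 8.32 to 9.40 in transgenic mice and from 7.50 over 7.74 to 8.15 in wild-type mice. The ranges overlapped. In C57BL/6J both genotypes lay at 7.50 to 7.58, with means of 7.54 in transgenic and 7.52 in wild-type mice. Cxcr1 was called in no single strain and in neither class of strains. Cxcr1 rose by 0.48 ± 0.12 (limma adjusted p = 0.0059), with 16 of 17 transgenic mice above their strain's wild-type mean. Its chromosome 1 neighbour Cxcr2, the receptor of Cxcl1 and Cxcl2, ranged from 7.57 over 8.43 to 10.74 against 8.27 over 8.64 to 9.29. It differed by -0.27 ± 0.25 (limma adjusted p = 0.47), or by -0.40 (limma adjusted p = 0.076) without transgenic 129 mouse 1, the mouse at 10.74. Of 10 measured neutrophil markers, Lcn2 and Trem1 rose, by 1.24 and 0.39, and none fell. The other 8 were not called and lay between -0.36 (Mmp9) and 0.18 (S100a8), with S100a9 at -0.02, Ly6g at 0.02 and Csf3r at -0.24. The score of the 10 markers was -0.35 to 2.09 in transgenic mice and -0.43 to 0.10 in wild-type mice. Cxcr1 was highest, at 9.40, in A/J mouse 2, whose neutrophil score of -0.35 was the lowest of the transgenic mice. In 129 mouse 1, with the score of 2.09, Cxcr1 was 8.32. In transgenic C3H mice it was 8.71 to 9.13, with scores of 0.04 to 0.40. The part of neutrophils in the Cxcr1 values was not tested.

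Ackr1, an atypical receptor on red cells and venules, ranged from 5.91 over 6.21 to 6.94 against 5.97 over 6.12 to 6.16. It rose by 0.25 ± 0.09 (limma adjusted p = 0.034), with 14 of 17 transgenic mice above their strain's wild-type mean. It exceeded the lower quartile of its array in 3 mice. The call was lost when the 129 wild type or any 1 of the 4 C57BL/6J mice was left out, at 0.20 to 0.23 and limma adjusted p between 0.069 and 0.088. With the whole C57BL/6J strain left out Ackr1 differed by 0.12 (limma adjusted p = 0.33), and the call was also lost without A/J, 129 or BALB/cJ, at 0.23 to 0.28. Of 7 measured blood endothelial markers 6 fell and none rose. Ackr3, which clears Cxcl12, differed by 0.01 ± 0.07 (limma adjusted p = 0.91), and Ccr10, a receptor of mucosal lymphocytes, by 0.11 ± 0.05 (limma adjusted p = 0.081). Ccr10 passed without the A/J wild type, transgenic A/J mouse 3 or transgenic C3H mouse 3, at 0.12 to 0.14 and limma adjusted p between 0.037 and 0.044.

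**Figure D3:**
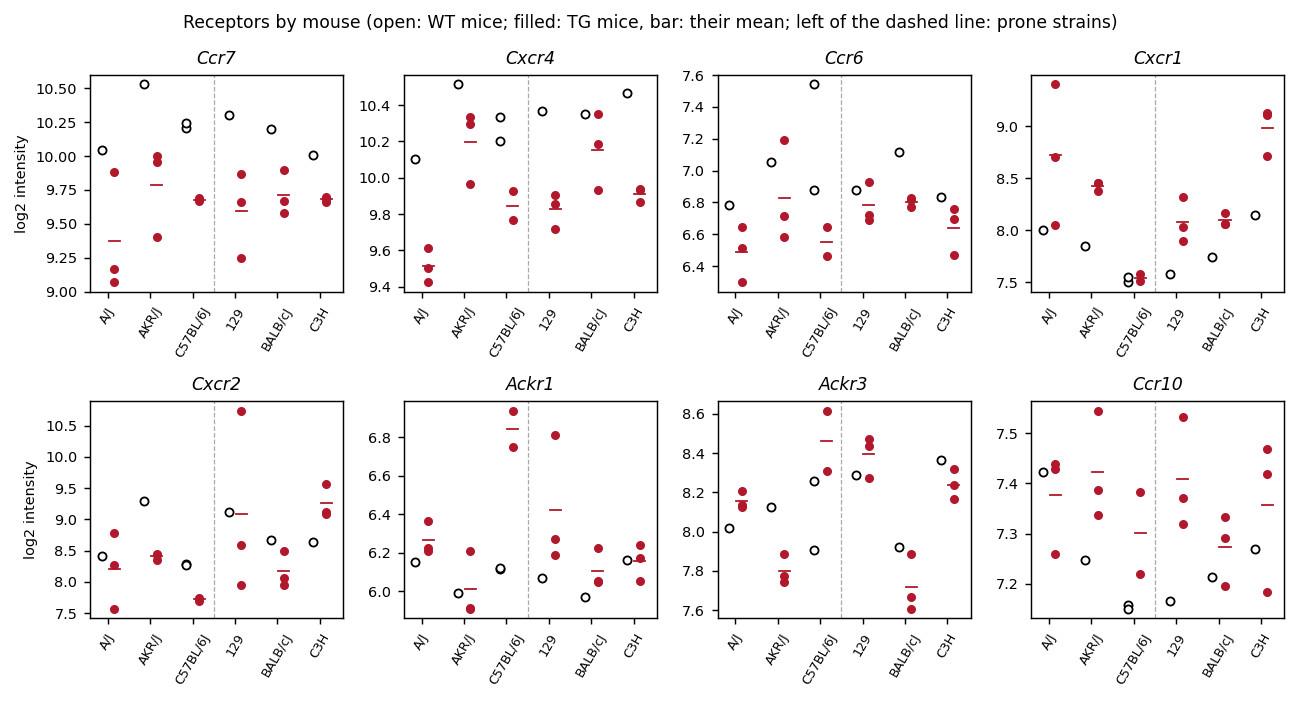
Log2 values of the 8 receptors in every mouse, by strain, with open points for wild-type mice, filled points for transgenic mice, bars for transgenic means and a dashed line between prone and resistant strains. Ccr7 in transgenic mice, 9.07 to 9.997, sits below the wild-type values of 10.005 to 10.53, and transgenic 129 mouse 1 stands alone for Cxcr2 at 10.74.

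The 6 strains were then taken one at a time. In 5 of them a single wild-type mouse stands for its group, so these tests borrow the spread from the other groups and assume that the lone mouse varies alike. A/J lungs had 7 of 30 genes called, against 14.9% of all genes. Ccl3, also known as MIP-1 alpha, was 9.69, 9.30 and 9.15 in transgenic A/J mice and 7.90 in the wild type, the lowest value of the 24 mice. The A/J difference for Ccl3 was 1.48 ± 0.39 (2.78-fold; limma adjusted p = 0.015). Ccl9 was 10.17, 10.02 and 8.95 against 8.58, and its difference was 1.13 ± 0.34 (limma adjusted p = 0.031). Mouse 3 lay close to the wild type, and the Ccl9 call was lost without mouse 1 (0.90, limma adjusted p = 0.090) or mouse 2 (0.98, limma adjusted p = 0.077). Ccl6 rose by 0.88, Cxcl16 by 0.76, Cxcl2 by 0.74 and Ccl8 by 0.57 in A/J, and Cxcr4 fell by 0.59. The Ccl8 call in A/J was lost without mouse 1 (0.59, limma adjusted p = 0.052) or mouse 3 (0.46, limma adjusted p = 0.071), and the Cxcl2 call without mouse 2 (0.65, limma adjusted p = 0.052).

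C57BL/6J, with 2 mice of each genotype, had 8 of 30 genes called, against 14.3% of all genes. Cxcl16 rose by 0.77, Ccl12 by 0.77, Ackr1 by 0.72 and Ackr3 by 0.38. Ccl5 fell by 0.89, from 11.32 and 11.39 in wild-type to 10.49 and 10.45 in transgenic mice (limma adjusted p = 0.037), Ccr6 by 0.66, Cxcl15 by 0.58 and Cxcr4 by 0.42. The count rested on single arrays: 4 genes were called without wild-type mouse 1, 2 without wild-type mouse 2 and 1 without transgenic mouse 1. Cxcl16 was called in each of these fits, and each of the other 7 genes lost its call in at least 1 fit that left out a C57BL/6J mouse. Ccr6 was at -0.33 without wild-type mouse 2 (limma adjusted p = 0.40), and Ccl12 at 0.50 without transgenic mouse 1 (limma adjusted p = 0.28). The Ackr3 call was lost in 11 of 24 fits that left out 1 mouse, among them those without wild-type mouse 2 (0.20, limma adjusted p = 0.44) and transgenic mouse 1 (0.23, limma adjusted p = 0.39), and the other 9 left out mice of other strains (0.38 in each, limma adjusted p between 0.051 and 0.058).

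AKR/J lungs had 2 genes called, against 2.11% of all genes. Ccl8 was 6.67, 6.81 and 6.62 in transgenic mice and 5.78 in the wild type, a difference of 0.91 ± 0.17 (limma adjusted p = 0.0082), and Cxcl16 rose by 0.62. In BALB/cJ 1 gene passed, against 2.26% of all genes, Cxcl16 with 0.50 ± 0.09 (limma adjusted p = 0.0068). In C3H no gene of the 30 passed in limma, against 0.822% of all genes, and 4 had an unadjusted p under 0.05. In 129, 2 genes passed, against 2.95% of all genes: Ccl19, with 1.15 ± 0.19 (2.21-fold; limma adjusted p = 0.0035), and Cxcl16, with 0.39 ± 0.09 (limma adjusted p = 0.024). The Cxcl16 call in 129 was lost without transgenic mouse 2 (0.37, limma adjusted p = 0.050) or 3 (0.38, limma adjusted p = 0.057).

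**Figure D4:**
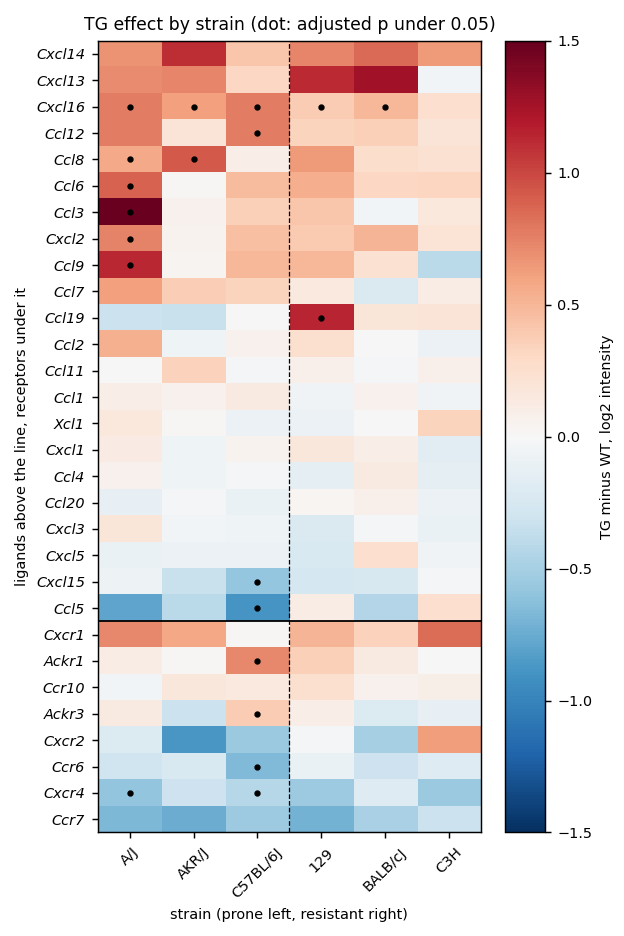
Transgenic minus wild-type log2 difference of each of the 30 genes within each of the 6 strains, as a colour grid with strains in columns, genes in rows and a dot where the limma adjusted p is under 0.05. Cxcl16 is above 0 in every strain, Ccl3 in A/J reaches 1.48, and Ccl19 is high in 129, at 1.15.

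Taken by the study's classes, 15 of 30 genes passed in the prone strains (8 transgenic and 4 wild-type mice), against 23.5% of all genes, and 5 in the resistant strains (9 and 3 mice), against 10.7%. The prone calls were 11 of 22 ligands and 4 of 8 receptors, and the resistant calls 3 and 2. Called in both classes were Cxcl16, Ccl8, Ccr7 and Cxcr4. Ccr7 differed by -0.66 ± 0.15 in prone and -0.51 ± 0.16 in resistant strains, and Cxcr4 by -0.44 ± 0.08 and -0.43 ± 0.09. Ccl5 differed by -0.69 ± 0.17 in prone strains (limma adjusted p = 0.0073) and by -0.02 ± 0.18 in resistant strains. Ccl7 differed by 0.44 ± 0.14 in prone (limma adjusted p = 0.025) and 0.01 ± 0.14 in resistant strains. The resistant count was 9 without transgenic A/J mouse 2 or mouse 3, whose strain enters only through the shared spread. A call in 1 class alone does not show that the classes differ.

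The test of that difference called 2 of 30 genes, against 0.474% of all genes. Cxcl16 differed by 0.72 ± 0.05 in prone and 0.38 ± 0.05 in resistant strains, and the transgene difference was larger in the prone strains by 0.34 ± 0.07 (limma adjusted p = 0.040). The test takes mice as its units although each class holds 3 strains. Strains were not tried as the units of this test, for Cxcl16 or for Ccl19. The Cxcl16 call is close to the threshold. It held in 7 of the 19 fits that left out 1 mouse, those without transgenic 129 mouse 3, A/J mouse 2 or 3, AKR/J mouse 3, BALB/cJ mouse 3, C3H mouse 3 or C57BL/6J mouse 2, while the difference stayed between 0.32 and 0.36 and the adjusted p reached 0.090.

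Ccl19 ran the other way. Ccl19 was 10.64, 10.39 and 10.15 in transgenic 129 mice and 9.25 in the 129 wild type, the lowest of all 24 mice. In the prone strains it was 9.76 to 10.15 against 10.23 in A/J, 10.46 to 10.75 against 10.93 in AKR/J, and 10.40 and 10.73 against 10.57 and 10.58 in C57BL/6J. In BALB/cJ it was 10.08 to 10.18 against 9.93, and in C3H 10.08 to 10.45 against 10.11. Transgenic mice were thus above the wild type in 129 and BALB/cJ, and below it in A/J and AKR/J. The difference of prone minus resistant was -0.73 ± 0.15 (limma adjusted p = 0.040), and Ccl19 was the only one of the 30 genes with strain-dependent change by the F test (limma adjusted p = 0.042), against 1.34% of all genes.

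Both Ccl19 calls rest on the single 129 wild type and on 1 probe set. The other 3 Ccl19 probe sets gave 0.36 ± 0.28, 0.27 ± 0.28 and 0.55 ± 0.30 in 129, none called (limma adjusted p between 0.44 and 0.74), and with the mean of the 4 the difference of prone minus resistant was -0.42 (limma adjusted p = 0.13). The difference held in 7 of 19 fits that left out 1 mouse, those without transgenic 129 mouse 1 or 3, any 1 of the 3 transgenic A/J mice, BALB/cJ mouse 3 or C3H mouse 3. The F test held in 9 of 19, those without transgenic 129 mouse 3, any 1 A/J mouse, AKR/J mouse 1, BALB/cJ mouse 3, C3H mouse 2 or 3, or C57BL/6J mouse 2. The 129 wild type has no such fit, since no 129 difference remains without it. Genes near Ccl19 with close copies, Ccl21 and Ccl27, share their probe sets with several gene names and were not counted among the 30. The Ccl21 probe set differed by 0.13 ± 0.13 (limma adjusted p = 0.57). The Ccl27 probe sets differed by 0.21 ± 0.14 (limma adjusted p = 0.36) and -0.21 ± 0.08 (limma adjusted p = 0.10). The latter differed by -0.36 ± 0.09 in prone strains (limma adjusted p = 0.019) and by -0.08 ± 0.10 in resistant strains.

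**Figure D5:**
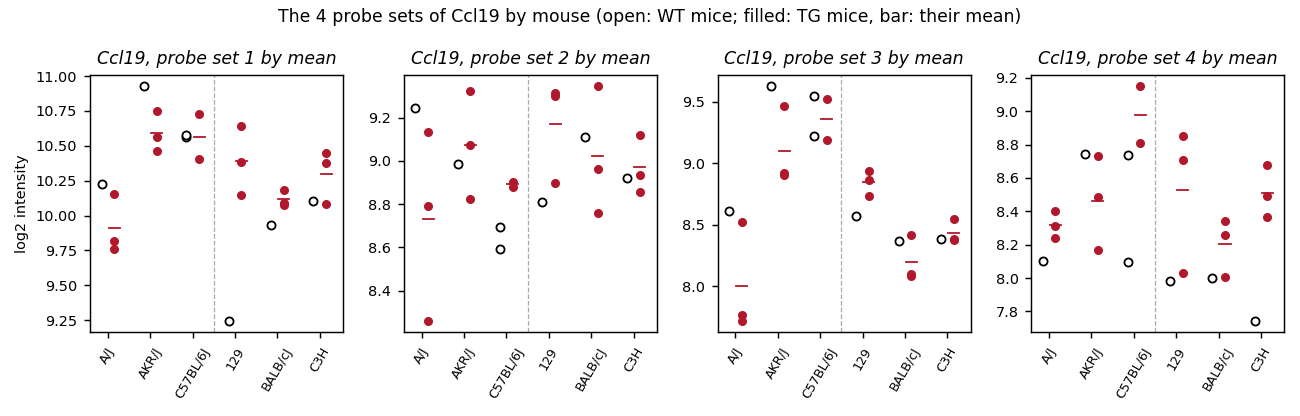
Log2 values of the 4 Ccl19 probe sets in every mouse, by strain, with open points for wild-type mice, filled points for transgenic mice and bars for transgenic means. The 129 wild type is lowest of 24 mice on the probe set used, at 9.25, and the gap to the transgenic 129 mice is smaller on the other 3 probe sets.

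Among transgenic mice alone, 4 of 30 genes differed between prone and resistant strains, against 11.1% of all genes. Ccl8 was 6.54 to 7.12 in 8 prone and 6.20 to 6.73 in 9 resistant transgenic mice, a difference of 0.35 ± 0.07 (limma adjusted p = 0.0045). Cxcl16 was 10.52 to 11.15 and 10.63 to 10.74, a difference of 0.22 ± 0.04 (limma adjusted p = 0.0010). The ranges overlapped for both genes, and the lowest Cxcl16 value among transgenic mice was that of a prone-strain mouse, AKR/J mouse 3. Ccl7 was 7.59 to 8.70 and 7.45 to 8.14, a difference of 0.35 ± 0.11 (limma adjusted p = 0.043). Ccl5 was 9.49 to 10.67 and 10.19 to 11.13, a difference of -0.47 ± 0.13 (limma adjusted p = 0.031).

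Mice of a strain share their genome, so strains, not mice, are the units of this comparison. With strain means as the unit, 3 against 3, none of the 4 was called in limma, and 1 of them, Ccl8, had an unadjusted p under 0.05. The Ccl7 call was also lost in 13 of 24 fits that left out 1 mouse, those without transgenic 129 mouse 1 or 3, A/J mouse 1 or 3, AKR/J mouse 1 or 2, BALB/cJ mouse 1 or 3, C3H mouse 1 or 2, C57BL/6J mouse 1 or either C57BL/6J wild type, with limma adjusted p up to 0.17. The Ccl5 call was lost in 9, those without transgenic 129 mouse 1, A/J mouse 1 or 2, BALB/cJ mouse 1 or 2, C3H mouse 1 or 2, or C57BL/6J mouse 1 or 2, with limma adjusted p up to 0.077.

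Genes that serve the same system were read from lists beside the 30, and the shares of all genes called over all strains, 13.2% higher and 13.5% lower, apply to each count. Of 25 measured genes of chemokine receptor signalling 2 rose and 7 fell, with a median of -0.10. The largest changes were in Rasgrp2, an activator of Rap1 in lymphocytes and platelets, which fell by 0.66, Rgs1, a brake on G protein signals in lymphocytes, which rose by 0.51, Gng2, a G protein subunit, which fell by 0.35, and Grk5, a receptor kinase, which fell by 0.33. Of 10 measured genes of adhesion and chemokine presentation 3 rose and 4 fell. Sdc1, a heparan sulfate proteoglycan, rose by 0.67 ± 0.06 and Ext1, which builds heparan sulfate chains, by 0.40 ± 0.07, while the integrin subunit Itga4 fell by 0.51 ± 0.09 and Icam2 by 0.38 ± 0.07 (limma adjusted p between 1.6e-08 and 0.00067).

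Of 22 measured inducers of chemokines and their signalling genes 5 rose and 3 fell, with the largest differences in the cytokines Il6 (0.82), Il1b (0.65) and Il33 (0.62) and the lymphoid cytokine Ltb (-0.34). Of 7 measured proteases that process chemokines 2 rose and 1 fell. Mmp14, a membrane metalloproteinase, rose by 1.00 and Dpp4, which trims the ends of several chemokines, fell by 0.32 ± 0.05 (limma adjusted p = 0.00013). All 4 measured genes of the list of platelet and older-symbol chemokine genes passed: Mif, a cytokine that binds Cxcr2, Cxcr4 and Cd74, rose by 0.58, Cd74 rose by 0.43, and the platelet chemokines Pf4 and Ppbp fell by 0.51 and 1.47. Ppbp ranged from 7.87 to 12.58 in wild-type mice and from 7.26 to 8.55 in transgenic mice. Of the 5 other measured platelet markers 3 fell, by 0.21 to 0.53, and none rose. The platelet marker score, Pf4 and Ppbp included, was 1.68 in the wild-type BALB/cJ mouse. It was -0.16 to 0.42 in the other wild-type mice and -0.45 to -0.01 in transgenic mice. The part of platelets in the Pf4 and Ppbp values was not tested.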

How the data were processed

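The deposited table holds log2 values, 25285 probe sets by 24 mice; the log2 scale was read from the deposited values (3.41 to 14.75), and the authors' summarisation, normalisation and log base were not given in the sources used here. Per the labels' protocols, RNA was extracted with a phenol-based reagent and columns and amplified with a whole-transcript kit. All 24 columns were matched to samples by title, 1 probe set with missing values was left out, and symbols came from the platform annotation (14539 probe sets with 1 symbol, 781 with several, 9964 unnamed here). Members were read at their probe set of highest mean; Ccl19 had 4.

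Tests used limma 3.58.1 in R 4.3.3 (lmFit, eBayes) on all 13499 genes with Benjamini-Hochberg adjustment at 0.05. Transgenic against wild type over all strains had strain as a covariate; effects by strain, by class and their difference came from a fit with 12 group means. P-values measure the spread between the sampled mice, and the number of arrays limits precision. The scripts were tested on simulated data. Array weights, centring, quantile normalization, a filter on dim genes, probe set choice, the variance model, strain weights, strain means as the unit, a replicate block, and leaving out each mouse or strain were tried.

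Every member is accounted for by name; members called over all strains, in the class difference, in strain dependence or between transgenic classes get full statistics, and of each other list up to 4 called genes of largest change are named. The members and lists were chosen with earlier results of these data known. Promoter windows and gene names are from RefSeq, GRCm38.p6; all 30 members matched by Entrez ID.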

Additional observations from a re-analysis of the deposited data

Results flagged for a closer look

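Cxcl16 was flagged by the limma test of the difference between the classes of strain, with mice as the units. Its transgenic minus wild-type value was larger in prone than in resistant strains by 0.34 on the log2 scale. Ccl19 was flagged by the same test in the other direction, at -0.73. Ccl19 was flagged a second time because its transgenic difference varied among the 6 strains by limma's F test, with an adjusted p of 0.042.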

How the results depend on the processing

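Over all strains the 13 called genes became 10 to 14 under the 9 alternative settings, 12 to 15 with single mice left out and 10 to 15 with single strains left out; no called value changed sign in any of these fits. The cause of the changes below was not tested. With all probe sets tested and adjusted together, the counts were 0 for the class difference, 0 for strain dependence, 2 between transgenic classes, 3 within C57BL/6J, 1 within 129 and 9 in the prone strains. With the mean of a gene's probe sets, the class difference called 1 gene and strain dependence 0. Centring the arrays gave 2 for strain dependence and 4 within 129; array weights gave 2, 4, and 9 in the resistant strains; the robust variance model gave 4 within 129. With strain means as the unit 0 genes differed between transgenic classes. Without dim genes 1 was called within AKR/J, since Ccl8 is itself left out. With single mice left out, the class difference called 0 to 2 genes, strain dependence 0 to 3, transgenic classes 2 to 5, C57BL/6J 1 to 9, 129 1 to 4, BALB/cJ 1 to 2, prone strains 10 to 16 and resistant strains 4 to 9.

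With the replicate number as a block the class difference called 1 gene, Ccl19, and Cxcl16 was at 0.33 (limma adjusted p = 0.075). The block lost Cxcl13 (0.59, limma adjusted p = 0.080) and gained Ccr10 over all strains. Number 1 is shared between genotypes in all 6 strains and number 2 in C57BL/6J. Only in C57BL/6J can deviations from the group means be compared, and same-numbered mice there correlated at 0.058. With 2 mice per genotype this is a single comparison, and it cannot show whether numbers pair mice in the other strains. The main fits read the numbers as names, not as pairs, which is an assumption. Members near the bottom of the scale, Cxcl2, Cxcl3, Cxcl5, Ccl12, Ackr1 and Ccl8, exceeded their array's lower quartile in 0 to 5 of 24 mice, and Ccr6 in 13.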

Other observations

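In A/J, transgenic mice differed among themselves in which genes were high. A/J mouse 3 held the highest values of all 24 mice for Ccl2 (8.88), Ccl7 (8.70) and Ccl8 (7.12), while A/J mouse 1 did so for Ccl3 (9.69), Ccl9 (10.17) and Ccl12 (6.79), and A/J mouse 2 for Ccl6 (12.59), Cxcl2 (6.33) and Cxcr1 (9.40).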
